A study of Mus musculus with 18 samples.

Results

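The ATF4 and CHOP core of the integrated stress response was followed through 10 genes, Atf4, Ddit3, Ppp1r15a, Ppp1r15b, Trib3, Atf5, Atf3, Cebpb, Cebpg and Chac1. The 10 genes were chosen for their roles in the pathway, with earlier results of these data known. They are 10 of the 17208 genes with reads, and 9 of them, all but Atf3, are among the 7794 genes that had at least 1 read in every library and were tested. The cells were MIN6, a mouse insulinoma line with beta cell properties, and every result refers to this line in culture. Control cells received the solvent DMSO for 18 h, and treated cells 200 µM CPA, either for 1 h, called CPA1 here, or for 18 h, called CPA18. No control received the solvent for 1 h. In CPA1 against control, CPA and the time since treatment began therefore cannot be told apart. CPA is cyclopiazonic acid, which blocks the SERCA pump that fills the endoplasmic reticulum (ER) with calcium. Each treatment was sequenced as mRNA-seq and as Ribo-seq, which reads the mRNA fragments covered by ribosomes, in 3 independent experiments, which gave 18 libraries.

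When the ER is stressed, the kinase PERK phosphorylates the initiation factor eIF2alpha, which slows the start of translation on most mRNAs. Some mRNAs with upstream open reading frames in their leaders, among them Atf4, are translated better under these conditions. The transcription factor ATF4 then raises genes of amino acid supply and stress, including Ddit3, which encodes CHOP. GADD34, the product of Ppp1r15a, closes the loop by leading a phosphatase to eIF2alpha. In beta cells, which make large amounts of proinsulin, this pathway is known both for adaptation and, when prolonged, for cell death.

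Total counts ran from 168129 to 4755030 reads per library, with the lowest in the Ribo-seq of CPA18 cells. The mitochondrial leucyl-tRNA synthetase gene Lars2 took 4.75% to 54.8% of mRNA-seq reads, with 45.1% or more in the 3 libraries of experiment 1 and 38.1% in CPA1 against 7.19% in control of experiment 2, and at most 3.51% of Ribo-seq reads. Ins1 and Ins2 together took 6.60% to 20.9% of mRNA-seq reads in control and 1.44% to 5.06% in CPA18. Such shares move all other values, which are relative to the library total, and for CPA18 against control they come with a median log2 change over all tested genes of 0.36 in mRNA-seq and 0.39 in Ribo-seq. All 9 beta cell markers had reads, and their summed level ran from 93677 to 262790.1 RPM, reads scaled to the library total, in control mRNA-seq and from 28189 to 83316 RPM in CPA18. The summed level of 5 exocrine and of 7 stromal, endothelial and immune markers stayed at or below 2.22 and 6.45 RPM in all libraries, and that of 5 markers of other islet cells ran from 25 to 152 RPM in mRNA-seq and from 108 to 265 RPM in Ribo-seq. In such bulk samples, fewer cells of a type and less RNA per cell cannot be told apart.

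Upstream start codons in the leader are the feature by which the pathway is known to select some mRNAs, so the bases around some of their upstream start codons are shown first. In the RefSeq transcripts of GRCm38.p6, 8 of the 10 genes had at least 1 upstream AUG in at least 1 transcript. Over tested genes the count was made per transcript, and 55.4% of the 16447 transcripts had an upstream AUG. A count per gene and a share per transcript are not like for like. Trib3 and Chac1 had no upstream AUG, and Cebpb had them only where a later start codon is annotated. A frame that opens upstream and runs over the main start codon was present in Atf4, Atf5 and the shorter transcript of Ddit3, against 19.9% of the transcripts of tested genes. In Atf4 this frame opens 97 bases before the main start and has 59 codons, and in Atf5 one opens 136 bases before it with 63 codons. The frame shown for Ddit3 opens 131 bases before the main start of its longer transcript and ends before it after 34 codons, while in the shorter transcript the same AUG opens 87 codons that run over the main start. In Ppp1r15a and Ppp1r15b the frames shown have 26 and 51 codons and end before the main start. The capitals mark the upstream start codon, all letters are in the 5′ to 3′ direction of the mRNA, and the Atf4 site spans an exon junction.
Atf4, upstream start at -97, chr15:80255669-80256216, plus strand: ccggcctaagccATGgcgctcttcacg
Atf5, upstream start at -136, chr7:44815487-44815513, minus strand: attgaaatttttATGaagaggaataag
Ddit3, upstream start at -131, chr10:127290817-127290843, plus strand: gtcgattatatcATGttgaagatgagc
Ppp1r15a, upstream start at -104, chr7:45526075-45526101, minus strand: cctgagggcgacATGaacccgctggct
Ppp1r15b, upstream start at -230, chr1:133131505-133131531, plus strand: tccctagccgggATGgacctaaccgcg

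The promoters were searched because most of these genes moved together in mRNA-seq. RefSeq promoter windows of GRCm38.p6, from 250 bases before to 50 bases after the start of the gene, were at hand for 9 of the 10 genes, all but Ppp1r15b. The letters TGATGNAA, the C/EBP-ATF response element bound by ATF4 with C/EBP partners, were found on either strand in 3 genes, Atf3, Chac1 and Trib3, against 2.08% of 8000 promoters of tested genes and 3.97% of all 32851 promoters. The cyclic AMP response element TGACGTCA was found only in Ppp1r15a of these genes, against 3.60% of the promoters of tested genes. The ER stress element, CCAAT and CCACG with 9 bases between them, was found in 0 of the 9, against 0.175%. For Chac1, the gene with the largest rise of mRNA at 1 h among the 7794 tested genes, which leave out Atf3, the 250 bases before the start are shown, and for the others the 30 bases around the match. Capitals mark the match, which in Atf3, Chac1 and Trib3 lies on the opposite strand. The Trib3 match lies 15 to 22 bases into the transcript.
Chac1, chr2:119350992-119351241, plus strand: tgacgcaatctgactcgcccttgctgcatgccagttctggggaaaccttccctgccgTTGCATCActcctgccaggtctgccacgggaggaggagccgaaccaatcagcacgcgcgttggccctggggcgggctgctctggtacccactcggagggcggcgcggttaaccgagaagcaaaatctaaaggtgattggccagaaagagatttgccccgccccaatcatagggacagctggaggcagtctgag
Atf3, chr1:191183425-191183454, minus strand: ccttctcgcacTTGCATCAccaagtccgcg
Trib3, chr2:152344028-152344057, minus strand: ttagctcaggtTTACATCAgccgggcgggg
Ppp1r15a, chr7:45526262-45526291, minus strand: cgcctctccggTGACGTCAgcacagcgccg

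After 1 h of CPA, 4 of the 9 tested genes rose in mRNA-seq and 7 rose in Ribo-seq. In mRNA-seq these were Chac1, Ddit3, Trib3 and Atf4, by log2 changes from 1.46 to 2.94 (edgeR, adjusted p under 0.05 over all 7794 genes). The share of all tested genes called higher was 0.449%, and none of the 9 was among the 0.269% called lower. In Ribo-seq Ddit3, Chac1, Atf4, Ppp1r15a, Trib3, Atf5 and Cebpb rose, by 1.27 to 4.10, against 3.72% of all tested genes called higher, and none was among the 2.78% called lower. The 9 had a median log2 change of 0.83 for mRNA-seq and 2.08 for Ribo-seq, against -0.12 and 0.07 over all tested genes. Ribosome occupancy, the Ribo-seq RPKM divided by the mRNA-seq RPKM (reads scaled to transcript length and library total), was called higher for Atf5, 1 of the 9, against 0.0898% of all tested genes.

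After 18 h all 9 tested genes rose in both assays. Of all tested genes 25.9% were called higher by mRNA-seq and 24.6% by Ribo-seq, and none of the 9 was among the 7.69% and 6.35% called lower. Their median log2 change reached 3.28 for mRNA-seq and 3.63 for Ribo-seq, against 0.36 and 0.39 over all tested genes. Trib3, Ppp1r15a, Ddit3 and Chac1 held ranks 2, 5, 6 and 8 of 7794 by log2 change in mRNA-seq, and Ddit3, Trib3 and Ppp1r15a ranks 1, 3 and 5 in Ribo-seq. In occupancy, 1 of the 9 was called higher, again Atf5, against 0.436% of all tested genes. With TMM scaling in place of the total count, 1048 of 2452 called genes were higher in mRNA-seq instead of 2018 of 2617, and 886 of 1836 in Ribo-seq instead of 1914 of 2409, and all 9 were called higher under both.

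From 1 h to 18 h all 9 tested genes rose further in both assays, against 31.9% of all tested genes called higher in mRNA-seq and 17% in Ribo-seq. The median log2 change of the 9 was 1.73 and 1.60, against 0.48 and 0.31 over all tested genes. In occupancy 0 of the 9 were called higher by edgeR, against 0.0642% of all tested genes, and 0 lower. Ppp1r15a and Atf4, 2 of the 9, had an unadjusted p under 0.05, as did 443 of all 7794 genes, both with lower values at 18 h, and DESeq2 called 1 of them, Ppp1r15a. The comparisons share libraries: both comparisons with control use the same 3 control libraries of each assay, and the comparison of CPA18 with CPA1 uses the treated libraries of both. Together the 10 genes took 0.0624% ± 0.0188 (SD, n = 3) of mRNA-seq reads in control, 0.142% ± 0.0739 in CPA1 and 0.625% ± 0.290 in CPA18. Their share of Ribo-seq reads was 0.0418% ± 0.00697, 0.184% ± 0.0461 and 0.533% ± 0.0715.

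The levels in single libraries were also compared, over all 10 genes and against the share of all tested genes whose higher group did not overlap the other. In mRNA-seq CPA1 lay above control without overlap for 6 of the 10 genes (1.81% of all tested genes), CPA18 above control for 9 (14.8%) and CPA18 above CPA1 for 7 (15.6%). In Ribo-seq the counts were 8 (10.3%), 10 (29%) and 9 (23%). For ribosome occupancy no such share of all tested genes was computed, so the overlaps of occupancy given below have no background.

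**Figure D1:**
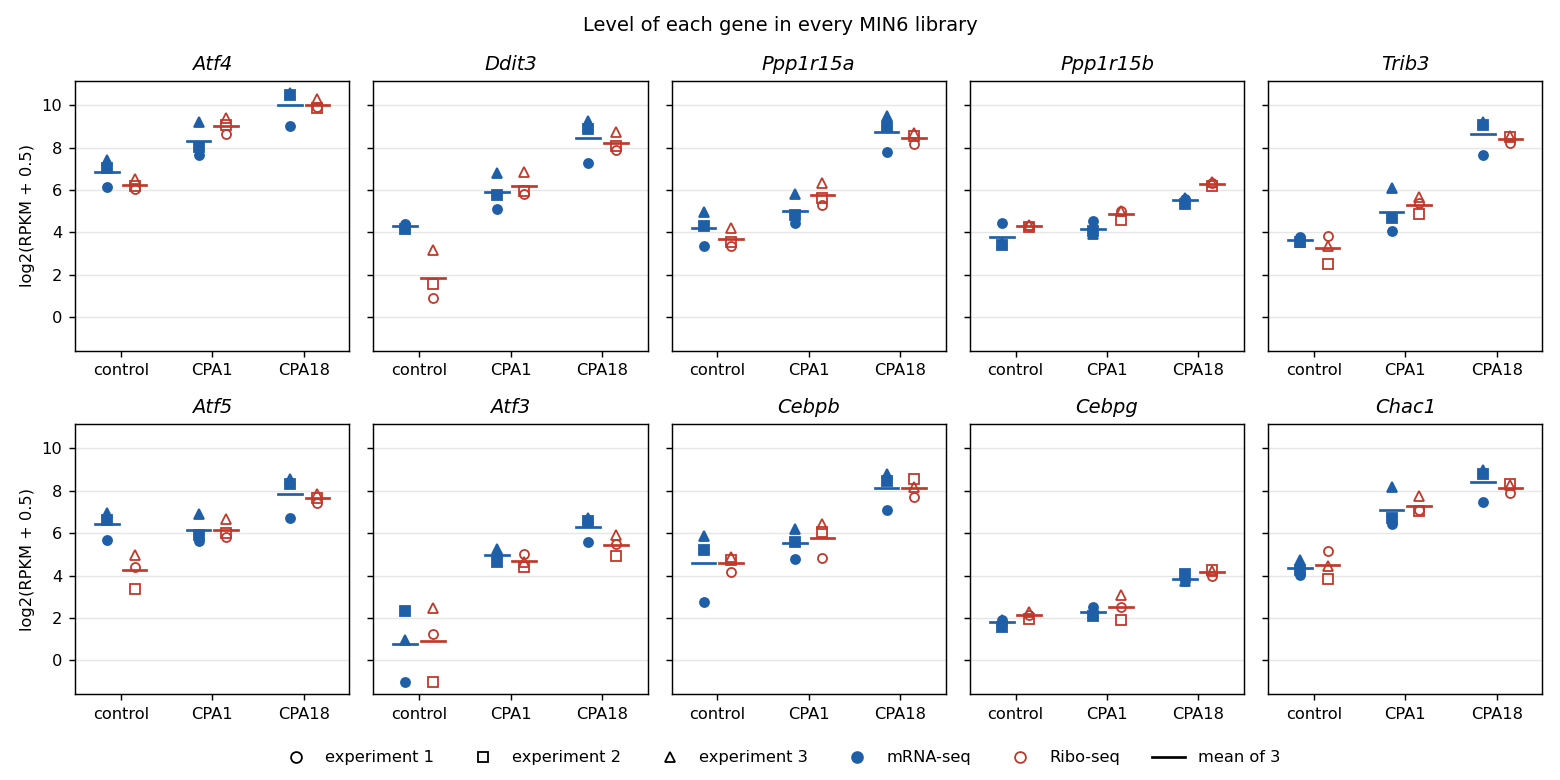
Level of each of the 10 genes in every library, as log2(RPKM + 0.5), by treatment. Filled blue symbols are mRNA-seq, open red symbols are Ribo-seq, symbol shapes are experiments, and lines are means of the 3 log2 values. Ribo-seq levels of all 10 genes were higher in every CPA18 library than in every control library, and the lowest points, at 0 RPKM, are Atf3 in control. Of all tested genes 29% had no such overlap.

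Calls on mRNA-seq rested on comparing libraries within experiments. Without the replicate block, 0 of the 4 calls of CPA1 against control passed (adjusted p of 0.248 for Chac1 and 1 for Ddit3, Trib3 and Atf4 by edgeR), and for CPA18 against control Ppp1r15b and Atf5 did not pass, which left 7 of 9. Without experiment 3, Chac1 alone of the 4 kept its call for CPA1 against control. The 7 and 9 calls in Ribo-seq were made with and without the block and without each experiment in turn.

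**Figure D2:**
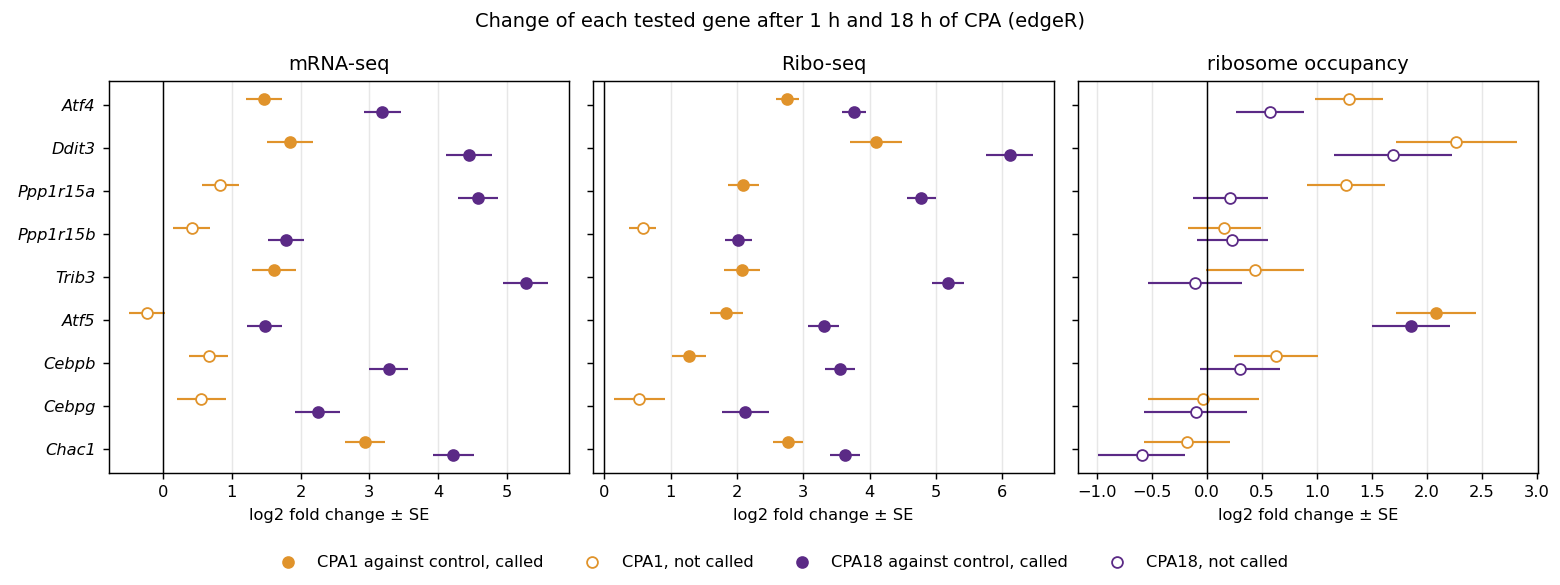
log2 fold change (edgeR) of the 9 tested genes in mRNA-seq, Ribo-seq and ribosome occupancy, for CPA1 (orange) and CPA18 (purple) against control. Bars are standard errors calculated back from the F statistic of the test. Filled symbols had an adjusted p under 0.05. At 1 h filled symbols number 4, 7 and 1 in the 3 panels, and at 18 h 9, 9 and 1.

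Atf4 encodes the transcription factor at the centre of the response, and lies at chr15:80255184-80257545. In Ribo-seq its level was 64.6, 73.1 and 92.2 RPKM in the 3 control libraries, in order of experiment, 398, 532 and 663 RPKM in CPA1 and 966, 935 and 1238 RPKM in CPA18. The 3 treatments did not overlap, and the log2 change was 2.76 ± 0.18 (SE, adjusted p = 3.85e-43 by edgeR) at 1 h and 3.76 ± 0.18 at 18 h. In mRNA-seq the levels were 69.5, 129.5 and 172 RPKM in control, 201, 261 and 589.6 RPKM in CPA1 and 523, 1440.1 and 1504 RPKM in CPA18. Every library of experiment 1 was the lowest of its treatment here, and CPA18 overlapped CPA1. The mRNA change was 1.46 ± 0.26 (adjusted p = 9.45e-05) at 1 h, a call lost without experiment 1 (1.43, adjusted p = 0.234) and without experiment 3 (1.28, adjusted p = 0.0551), and 3.19 ± 0.27 at 18 h. Atf4 thus had 50.5% ± 8.27 (SD, n = 3) of its CPA18 Ribo-seq level at 1 h, and 31.9% ± 12 of its CPA18 mRNA-seq level.

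Atf4 occupancy was 0.929, 0.565 and 0.537 in control, 1.98, 2.04 and 1.12 in CPA1 and 1.85, 0.649 and 0.824 in CPA18. It was higher in CPA1 than in control in all 3 experiments and the 2 groups did not overlap, while CPA18 overlapped both. The change at 1 h was 1.29 ± 0.31 on the log2 scale, with an adjusted p of 0.0580 by edgeR, so the call was missed. It was made with 5 of the other scalings, filters or tests tried, among them a library total without Ins1, Ins2 and Lars2 (1.11, adjusted p = 0.0152) and TMM (1.15, adjusted p = 0.0294). It was also made without experiment 3 (1.45, adjusted p = 0.0486). It was not made with median centring, with limma at either pseudocount, with detected transcripts only, or without experiment 1 or 2. Nor was it made without the block (1.28, adjusted p = 1). At 18 h the change was 0.57 ± 0.31 (adjusted p = 0.590).

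Atf5, at chr7:44812256-44816658, encodes a relative of ATF4 whose mRNA is also known for translation through upstream frames. Its mRNA-seq level was 50.4, 96.8 and 125 RPKM in control and 49.4, 59.6 and 120.2 RPKM in CPA1, lower in CPA1 in each experiment with a log2 change of -0.23 ± 0.26 (adjusted p = 0.990). Its Ribo-seq level was 20.8, 9.82 and 31.1 RPKM in control and 56.1, 63.9 and 101 RPKM in CPA1, and these groups did not overlap. The Ribo-seq change was 1.84 ± 0.24 (adjusted p = 3.40e-11). At 18 h both levels were higher, with 104, 314 and 376 RPKM in mRNA-seq and 173, 199 and 232 RPKM in Ribo-seq, and the mRNA change was 1.48 ± 0.25 (adjusted p = 1.70e-06, or 0.158 without the block), the Ribo-seq change 3.31 ± 0.24. The mRNA-seq levels of CPA18 overlapped those of control.

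Atf5 occupancy was 0.414, 0.101 and 0.248 in control, 1.13, 1.07 and 0.837 in CPA1 and 1.67, 0.636 and 0.616 in CPA18. Both treated groups lay above all control values. The log2 change was 2.09 ± 0.36 (adjusted p = 0.000738 by edgeR) at 1 h and 1.85 ± 0.36 (adjusted p = 0.00124) at 18 h, the only occupancy calls among the 9 genes. Both were lost without the block (adjusted p = 1 for each), that at 1 h also without experiment 2 (1.60, adjusted p = 0.0874) and that at 18 h without experiment 1 (1.83, adjusted p = 0.0646). The control Ribo-seq values rest on 105 reads over the 3 libraries. Counts cover whole transcripts, leaders included, so footprints on the upstream frames are part of every Ribo-seq and occupancy value and cannot be separated from those on the coding sequence here.

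**Figure D3:**
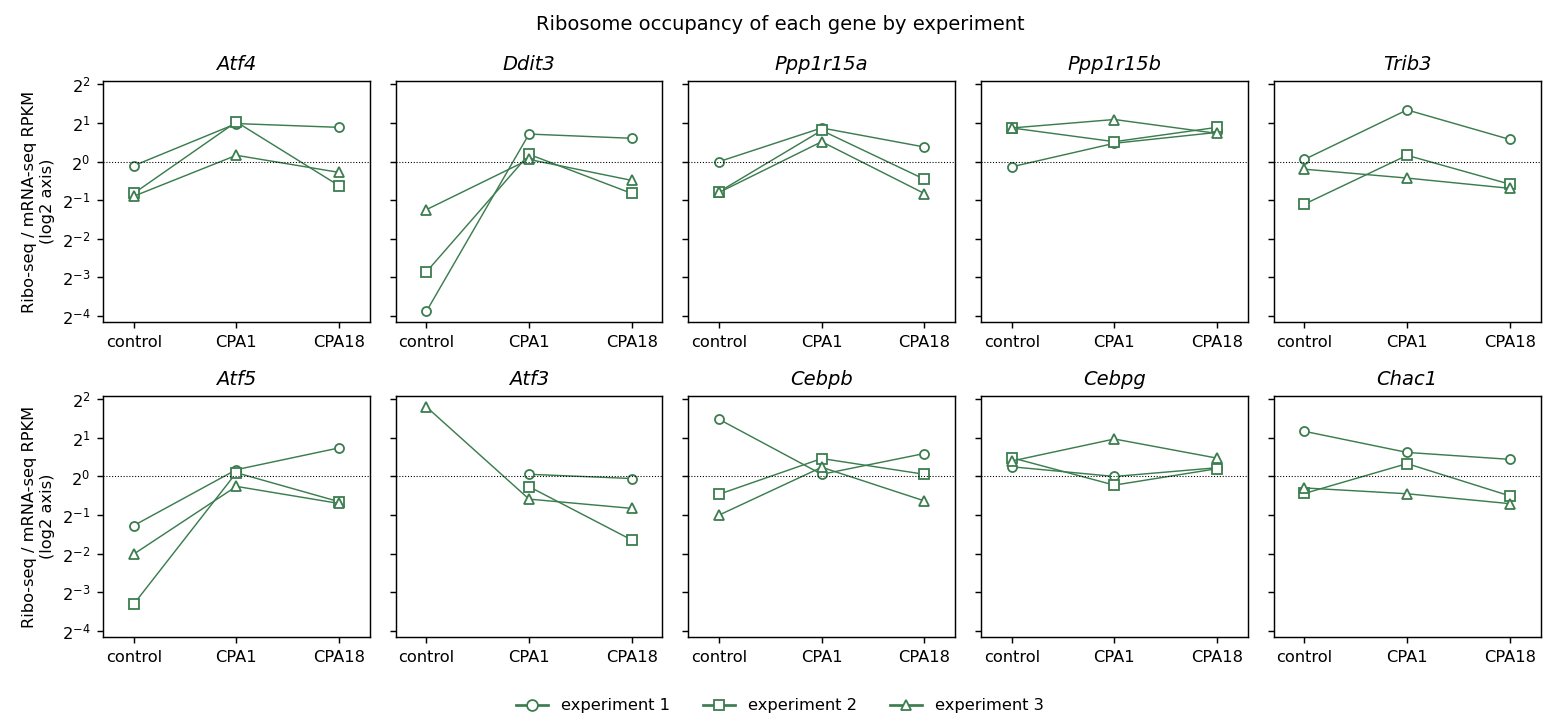
Ribosome occupancy (Ribo-seq RPKM over mRNA-seq RPKM, log2 axis) of each gene by treatment, with lines joining the libraries of an experiment. Atf3 points at 0 or without mRNA reads are left out. Atf4, Ddit3, Ppp1r15a and Atf5 were higher in CPA1 than in control in all 3 experiments. The share of all tested genes with such a rise was not computed, and their median log2 occupancy change at 1 h was 0.16. The dotted line marks a ratio of 1.

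Ddit3, at chr10:127290793-127296291, encodes CHOP, a transcription factor that promotes cell death when stress lasts. Its Ribo-seq reads in control numbered 1, 2 and 8, or 1.37, 2.42 and 8.49 RPKM, and rose to 55.5, 61.9 and 113 RPKM in CPA1 and 233, 266 and 428 RPKM in CPA18. The 3 treatments did not overlap. The log2 change was 4.10 ± 0.40 (adjusted p = 2.05e-20 by edgeR) at 1 h and 6.11 ± 0.35 at 18 h, rank 1 of 7794 in both, with a size that rests on 11 control reads in all. In mRNA-seq the level was 20.2, 17.5 and 20.1 RPKM in control, 33.9, 54.2 and 109 RPKM in CPA1 and 154, 471 and 599.9 RPKM in CPA18, again without overlap. The mRNA change was 1.85 ± 0.33 (adjusted p = 9.49e-05) at 1 h, 1.35 without experiment 3 (adjusted p = 0.262), and 4.45 ± 0.33 at 18 h.

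Ddit3 occupancy was 0.0679, 0.138 and 0.422 in control, a range that overlapped that of Atf5, and 1.64, 1.14 and 1.04 in CPA1 and 1.52, 0.565 and 0.714 in CPA18. Both treated groups lay above all control values. The change at 1 h was 2.27 ± 0.55 (adjusted p = 0.0611 by edgeR), and ranged from 1.70 with only the transcripts read in all libraries (adjusted p = 0.463) to 3.43 without experiment 3 (adjusted p = 0.0123). Ddit3 shares 39 of its 869 stretches of 30 bases with the opposite strand of Mars1, a methionyl-tRNA synthetase gene that overlaps it. Reads from these stretches cannot be told apart where strand was not used, and its use in counting is not given in the sources used here.

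Ppp1r15a and Ppp1r15b encode GADD34 and CReP, the inducible and the constitutive subunit that lead protein phosphatase 1 to eIF2alpha. Ppp1r15a, at chr7:45522917-45526268, had Ribo-seq levels of 9.87, 11 and 17.7 RPKM in control, 38.6, 48.9 and 79.7 RPKM in CPA1 and 284, 367 and 408 RPKM in CPA18, without overlap. Its log2 change in Ribo-seq was 2.09 ± 0.24 (adjusted p = 4.06e-15 by edgeR) at 1 h and 4.78 ± 0.22 at 18 h. In mRNA-seq the levels were 9.82, 18.9 and 30.8 RPKM in control, 21.1, 27.9 and 55.9 RPKM in CPA1 and 218, 504 and 724 RPKM in CPA18. CPA1 overlapped control in mRNA-seq, but the level was higher within each experiment, by 2.14, 1.47 and 1.81 times. The mRNA change was 0.83 ± 0.28 (adjusted p = 0.187) at 1 h, called with a library total without Ins1, Ins2 and Lars2 (0.97, adjusted p = 0.00515), and 4.58 ± 0.29 at 18 h. Its 1 h level was 7.64% ± 2.06 (SD, n = 3) of the 18 h level in mRNA-seq and 15.5% ± 3.52 in Ribo-seq.

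Ppp1r15a occupancy was 1.00, 0.582 and 0.575 in control, 1.83, 1.75 and 1.43 in CPA1 and 1.30, 0.729 and 0.564 in CPA18. CPA1 lay above all values of the other groups. The change was 1.27 ± 0.36 (adjusted p = 0.173 by edgeR) from control to CPA1 and -1.05 ± 0.31 (adjusted p = 0.398) from CPA1 to CPA18, and DESeq2 called both (adjusted p = 0.0142 and 0.0158).

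Ppp1r15b, at chr1:133131166-133139800, moved less. Its Ribo-seq level was 19.4, 18.3 and 19.8 RPKM in control, 31.7, 23.2 and 31.2 RPKM in CPA1 and 79.9, 73.1 and 81.1 RPKM in CPA18, without overlap. The log2 change in Ribo-seq was 0.58 ± 0.20 (adjusted p = 0.0631) at 1 h and 2.02 ± 0.20 (adjusted p = 2.39e-20) at 18 h. In mRNA-seq the level was 21.3, 10.0 and 10.8 RPKM in control, 22.8, 16.2 and 14.7 RPKM in CPA1 and 47.3, 39.5 and 48.9 RPKM in CPA18, with changes of 0.41 ± 0.27 (adjusted p = 0.968) and 1.79 ± 0.27 (adjusted p = 4.05e-08, or 0.0755 without the block). The control levels of Ppp1r15a and Ppp1r15b overlapped in mRNA-seq, and in CPA18 the mean of Ppp1r15a was 482 RPKM and that of Ppp1r15b 45.2 RPKM.

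Trib3, at chr2:152337425-152344060, encodes a pseudokinase that is induced by ATF4 and CHOP and binds AKT and ATF4. In mRNA-seq its level was 13.1, 11.3 and 11.3 RPKM in control, 16.4, 25.5 and 68.2 RPKM in CPA1 and 200.2, 539.6 and 596 RPKM in CPA18. The groups did not overlap, but CPA1 of experiment 3 stood far above the other CPA1 libraries. The log2 change at 1 h was 1.62 ± 0.32 (adjusted p = 0.000537 by edgeR), 0.86 without experiment 3 (adjusted p = 0.825) and 1.59 without the control mRNA-seq library of experiment 2 (adjusted p = 0.0835). With limma it was 1.33 (adjusted p = 0.112) at a pseudocount of 0.5 and 1.30 (adjusted p = 0.127) at 1. The change at 18 h was 5.28 ± 0.33 (adjusted p = 1.23e-27). In Ribo-seq the level was 13.7, 5.24 and 9.90 RPKM in control, 41.3, 28.6 and 50.8 RPKM in CPA1 and 299, 360.1 and 369 RPKM in CPA18, with changes of 2.08 ± 0.27 (adjusted p = 2.01e-11) and 5.18 ± 0.24. The 1 h level was 8.11% ± 3.37 (SD, n = 3) of the 18 h level in mRNA-seq and 11.8% ± 3.39 in Ribo-seq. The occupancy change was 0.44 ± 0.45 at 1 h (adjusted p = 0.914), 1.02 without experiment 3 (adjusted p = 0.609), and -0.11 ± 0.43 at 18 h (adjusted p = 0.971).

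Chac1, at chr2:119351242-119354326, encodes an enzyme that degrades glutathione and is a target of ATF4. It had the largest log2 change of mRNA at 1 h among the 7794 tested genes, 2.94 ± 0.29 (adjusted p = 1.77e-13 by edgeR), while with the wider filter, which takes in Atf3, Chac1 had 2.92 and Atf3 3.83. Its mRNA-seq level was 15.8, 18.4 and 26.5 RPKM in control, 86.7, 103 and 291 RPKM in CPA1 and 174, 445 and 498 RPKM in CPA18. CPA1 did not overlap control but overlapped CPA18. In Ribo-seq the level was 35.4, 13.6 and 21.6 RPKM in control, 134, 130.3 and 213 RPKM in CPA1 and 237, 314 and 306 RPKM in CPA18, without overlap. The Ribo-seq change was 2.77 ± 0.22 (adjusted p = 1.11e-28) at 1 h and 3.63 ± 0.23 at 18 h, and from 1 h to 18 h it was 0.86 ± 0.20 (adjusted p = 0.000161, or 0.163 by DESeq2). Chac1 thus had 43.8% ± 18.4 (SD, n = 3) of its 18 h level in mRNA-seq and 55.9% ± 14.2 in Ribo-seq after 1 h. Its occupancy change at 1 h was -0.18 ± 0.39 (adjusted p = 0.967), and 0.24 without experiment 1.

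Atf3, at chr1:191170296-191183333, encodes a stress-induced factor that pairs with other basic leucine zipper (bZIP) proteins. It had 0, 15 and 7 reads in control mRNA-seq and 3, 0 and 11 in control Ribo-seq, and was therefore not tested with the others. In mRNA-seq its level was 0, 4.60 and 1.47 RPKM in control, 30.8, 24.7 and 37.1 RPKM in CPA1 and 46.7, 93.2 and 105 RPKM in CPA18, without overlap. In Ribo-seq it was 1.84, 0 and 5.13 RPKM, 32.1, 20.6 and 24.7 RPKM, and 45.1, 29.8 and 59.2 RPKM, with overlap only between CPA1 and CPA18. With the wider filter of at least 10 reads over the 18 libraries, edgeR called it higher at 1 h in mRNA-seq (adjusted p = 1.62e-09) and in Ribo-seq (adjusted p = 3.37e-13), and at 18 h in both. Of the 3 experiments, those with control reads gave 5.36 and 25.3 times more mRNA at 1 h and 17.4 and 4.81 times more in Ribo-seq.

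Cebpb and Cebpg encode C/EBP proteins that pair with ATF4 and CHOP. Cebpb, at chr2:167688915-167690432, had Ribo-seq levels of 17.7, 26.2 and 28.6 RPKM in control, 27.9, 65.4 and 86.8 RPKM in CPA1 and 208, 369.8 and 285 RPKM in CPA18. CPA1 of experiment 1 lay within the control range, and the log2 change was 1.27 ± 0.25 (adjusted p = 3.97e-05 by edgeR) at 1 h and 3.55 ± 0.23 at 18 h. In mRNA-seq control spanned 6.32 to 57.2 RPKM, with 5 reads in experiment 1, CPA1 26.9 to 73.8 RPKM and CPA18 138 to 443 RPKM. The mRNA change was 0.66 ± 0.28 (adjusted p = 0.544) at 1 h, 0.38 without experiment 1 (adjusted p = 0.995), and 3.28 ± 0.28 (adjusted p = 3.43e-18) at 18 h.

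Cebpg, at chr7:35046422-35056566, was the lowest of the 10 in CPA18. Its level in mRNA-seq was 3.25, 2.45 and 3.26 RPKM in control, 5.30, 3.78 and 4.14 RPKM in CPA1 and 13.0, 16.3 and 13.0 RPKM in CPA18. In Ribo-seq it was 3.87, 3.42 and 4.30 RPKM, 5.31, 3.24 and 8.11 RPKM, and 15.1, 18.8 and 18.0 RPKM. CPA18 lay above the other groups in both assays, and CPA1 overlapped control in Ribo-seq. The log2 change at 1 h was 0.56 ± 0.35 (adjusted p = 0.968 by edgeR) in mRNA-seq and 0.53 ± 0.38 (adjusted p = 0.505) in Ribo-seq, which rests on 52 control and 37 CPA1 reads. At 18 h it was 2.25 ± 0.33 (adjusted p = 3.83e-08) and 2.13 ± 0.35 (adjusted p = 5.22e-08).

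**Figure D4:**
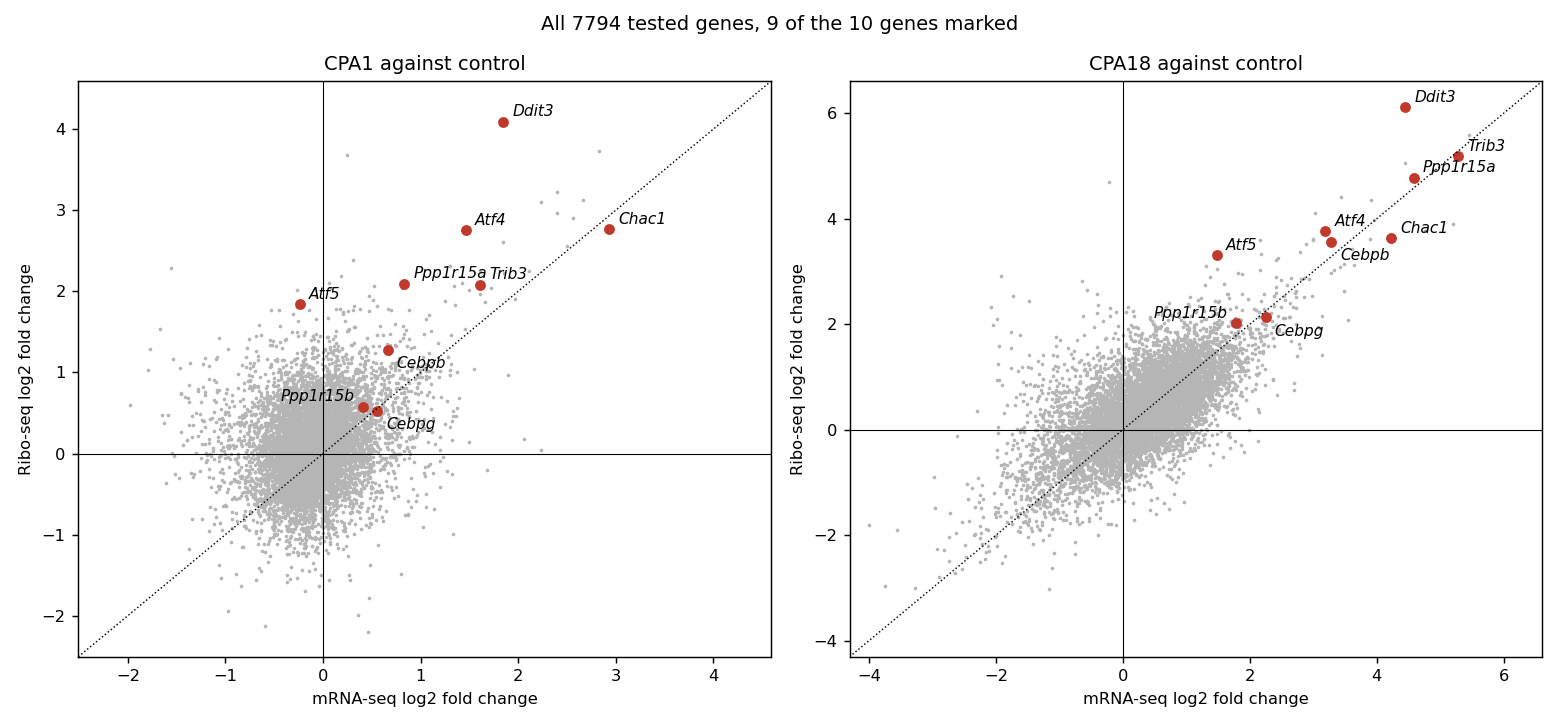
Ribo-seq against mRNA-seq log2 fold change of all 7794 tested genes (grey) with the 9 tested genes in red, for CPA1 and CPA18 against control. The dotted line marks equal change. At 1 h Ddit3, Atf4, Ppp1r15a, Atf5, Cebpb, Trib3 and Ppp1r15b lie above the line, and Cebpg and Chac1 lie just below it. The median log2 occupancy change of all tested genes at 1 h was 0.16.

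Ordered by mean mRNA-seq level per length in control, Atf4 (124 RPKM) and Atf5 (90.8 RPKM) were highest, and their ranges overlapped. Cebpb, Chac1, Ppp1r15a, Ddit3, Ppp1r15b and Trib3 followed between 33.2 and 11.9 RPKM, and each overlapped its neighbour in that order. Cebpg at 2.99 RPKM and Atf3 at 2.02 RPKM were lowest. In CPA18 Atf4 was highest at 1155 RPKM with a range that overlapped the next, Ppp1r15a, Trib3, Ddit3, Chac1, Cebpb and Atf5 lay between 482 and 265 RPKM with overlapping ranges, and Atf3, Ppp1r15b and Cebpg lay at 81.6, 45.2 and 14.1 RPKM. In Ribo-seq of CPA18 the order was led by Atf4 at 1046 RPKM and ended with Cebpg at 17.3 RPKM.

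Genes whose pattern was most like those of Atf4 and Ddit3 were sought by the Pearson correlation of log2(RPKM + 0.5) over the 18 libraries, centred within assay, among 4917 genes with a mean of at least 5 RPKM in both assays. For Atf4 these were Ddit3 (0.971), Chac1 (0.957), Nfkbil1 (0.953), Herpud1 (0.947) and Xbp1 (0.944). For Ddit3 they were Atf4 (0.971), Ifrd1 (0.950), Brap (0.936), Ppp1r15a (0.932) and Herpud1 (0.923). Ppp1r15b ranked 306 for Atf4 (0.772) and 72 for Ddit3 (0.836). The values describe 18 libraries that share treatments, experiments and library totals.

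Upstream of ATF4, 0 genes were called at 1 h, when 0.449% of all tested genes were called higher in mRNA-seq and 3.72% in Ribo-seq. With so few genes, 0 calls lie near these shares. Some of the genes rose at 18 h, when 25.9% of all tested genes were called higher in mRNA-seq and 24.6% in Ribo-seq. In lists this small, the counts at 18 h cannot be told apart from these shares either. Of the 4 eIF2 kinases 2 were tested, and 0 were called at 1 h in either assay by edgeR. At 18 h 1 of the 2 was called in each assay. Eif2ak3, which encodes PERK, rose at 18 h in mRNA-seq by 1.09 ± 0.38 (adjusted p = 0.0180). This call was lost with TMM, with median centring and with a library total without Ins1, Ins2 and Lars2. In Ribo-seq Eif2ak3 rose by 1.45 ± 0.40 (adjusted p = 0.00243), a call made under each of these 3 other scalings and without the block. Of the 8 subunits of eIF2 and its exchange factor eIF2B, all tested, 0 were called at 1 h and 3 rose at 18 h in mRNA-seq, Eif2b3 (1.66 ± 0.34), Eif2b4 (1.55 ± 0.29) and Eif2b1 (1.21 ± 0.32), with a median of 0.59 over the 8 against 0.36 over all tested genes. With TMM scaling 2 of the 8 were called higher in mRNA-seq. In Ribo-seq 3 rose at 18 h, with a median of 0.60 against 0.39 over all tested genes, and 3 were called under each of the 3 other scalings and without the block. Of 5 phosphatase catalytic subunits and kinase inhibitors, Dnajc3, which encodes the PERK inhibitor p58IPK, rose by 0.95 ± 0.30 and Ppp1cc, a phosphatase catalytic subunit, by 0.76 ± 0.29 at 18 h in mRNA-seq, and with TMM scaling 0 were called higher and 1 lower. In Ribo-seq 1 of the 5 rose at 18 h, and with TMM scaling 0 were called higher and 2 lower. Without the block the kinases, the eIF2 and eIF2B subunits and these 5 genes had 0 calls in mRNA-seq at 18 h.

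Downstream, the further targets of ATF4 and CHOP rose mainly at 18 h. Of 44, all with reads, 39 were tested. At 1 h 0 were called by edgeR in mRNA-seq, with a median log2 change of 0.02, against 0.449% of all tested genes called higher. In Ribo-seq 3 rose, against 3.72% of all tested genes. These were the ER degradation factor Herpud1 (1.41 ± 0.17), the mTORC1 inhibitor Ddit4 (1.18 ± 0.32) and the amino acid transporter Slc38a2 (1.00 ± 0.19). At 18 h 35 rose and 0 fell in mRNA-seq, with a median of 2.13 and against 25.9% of all tested genes called higher, and 36 rose and 0 fell in Ribo-seq, with a median of 1.70 and against 24.6%. The largest of the called mRNA changes were those of Cth, an enzyme of cysteine synthesis (3.91 ± 0.48), the glycine transporter Slc6a9 (3.89 ± 0.36) and the cationic amino acid transporter Slc7a3 (3.64 ± 0.54). Without the block 19 of the 39 rose in mRNA-seq at 18 h, and with TMM scaling 35. Of the 39, 0 were called in occupancy at either time, against 0.0898% of all tested genes called higher at 1 h and 0.436% at 18 h.

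Of 7 other mRNAs known for upstream frames and translation under eIF2 phosphorylation, 3 rose in Ribo-seq at 1 h, Ifrd1, a transcriptional coregulator (1.57 ± 0.21), the decapping cofactor Pnrc2 (1.16 ± 0.39, adjusted p = 0.0471) and the cell cycle inhibitor Cdkn1a (0.88 ± 0.21), and 0 were called in mRNA-seq or in occupancy. The median of the 7 in occupancy at 1 h was 0.73, against 0.16 over all tested genes. Their Ribo-seq count at 1 h was 2 with TMM scaling and 2 without the block. At 1 h 3.72% of all tested genes were called higher in Ribo-seq, 0.449% in mRNA-seq and 0.0898% in occupancy. At 18 h 5 rose in mRNA-seq, or 2 with TMM scaling and 1 without the block, against 25.9% of all tested genes. In Ribo-seq 6 rose and 1 fell at 18 h, against 24.6% called higher and 6.35% lower.

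Of 35 other bZIP factors, the family to which ATF4 and CHOP belong, 24 were tested. At 1 h 10 rose in Ribo-seq and 6 in mRNA-seq, and 0 fell, against 3.72% and 0.449% of all tested genes called higher. Without the block 10 and 0 were called. The largest Ribo-seq changes among them were those of the immediate early genes Fosb (3.74 ± 0.27), Fos (3.12 ± 0.18) and Junb (2.91 ± 0.20). At 18 h in mRNA-seq 10 rose and 4 fell, or 7 and 4 with TMM scaling and 1 and 1 without the block, against 25.9% higher and 7.69% lower over all tested genes, with Nfe2l1, a regulator of proteasome genes (2.36 ± 0.25), Atf6, an ER stress sensor (1.83 ± 0.42), and the beta cell factor Mafa (-2.25 ± 0.26) named by the size of their change. Of the 9 beta cell markers, 8 fell in mRNA-seq at 18 h, led by Slc2a2 (-3.28 ± 0.37), against 7.69% of all tested genes, and 2 of 9 without the block, and their part in the changes of the 10 genes was not tested.

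**Figure D5:**
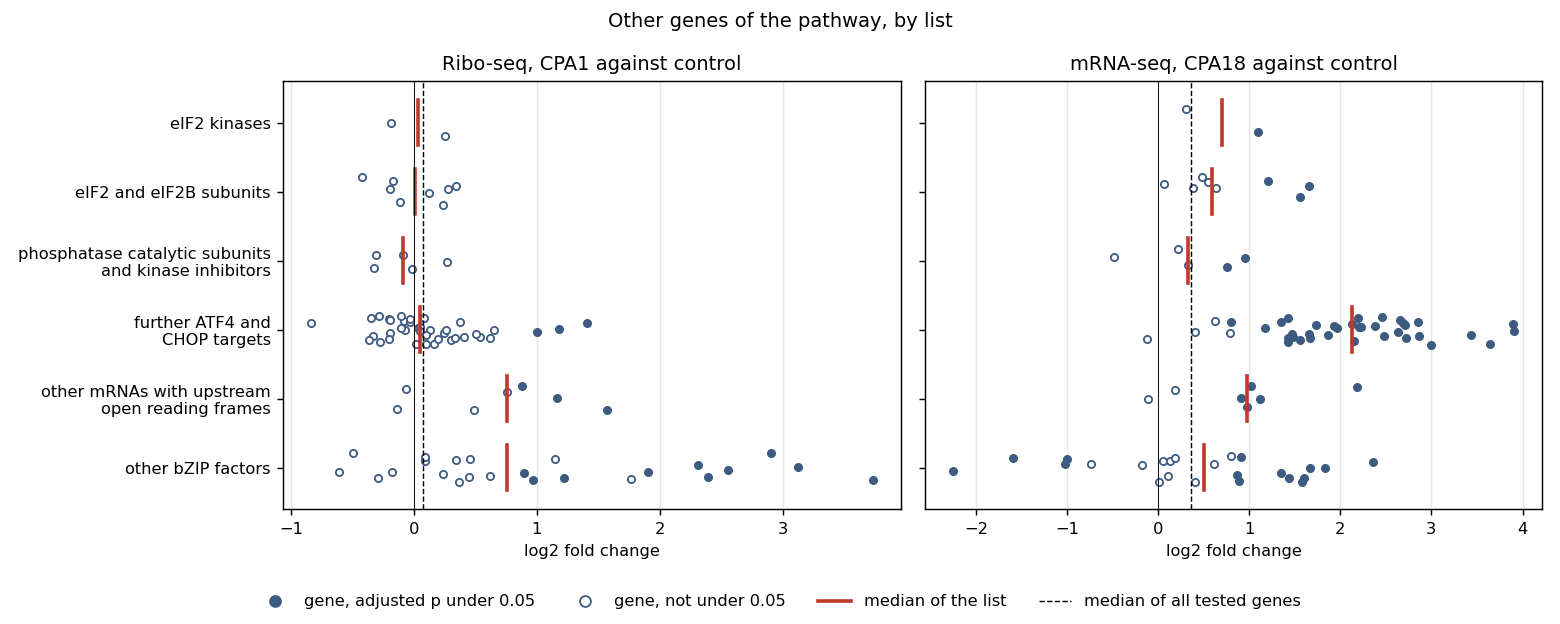
log2 fold change of the tested genes of each list in Ribo-seq at 1 h and in mRNA-seq at 18 h of CPA, against control. Filled symbols had an adjusted p under 0.05 by edgeR, red bars are the list medians and the dashed line is the median of all tested genes. Further ATF4 and CHOP targets have a median of 0.05 at 1 h and 2.13 at 18 h.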

How the data were processed

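The authors aligned mRNA-seq and Ribo-seq reads with Bowtie2 to mouse RefSeq transcripts (GRCm38.p6) and deposited raw counts and RPKM values per transcript, 1 table per experiment. The deposited RPKM followed from the count, the whole transcript length and the library total, with a median ratio of 0.996 over the member transcripts. Of 30741 transcripts, 30227 matched RefSeq with their version and 478 without it, 36 did not match, and counts and RPKM were summed per gene. The tested genes had at least 1 read in all 18 libraries, whose totals of 168129 to 4755030 limit the precision of low genes. Control libraries of experiment 2 carry titles and descriptions that name different assays, and the titles and column headers were followed. Lars2 took 7.19% of reads in the library titled mRNA-seq and 0.083% in that titled Ribo-seq, against 4.75% to 54.8% and 0.363% to 3.51% in the other libraries of each assay. Swapped assays would invert the control occupancies of experiment 2.

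Counts were tested with edgeR 4.0.16 (R 4.3.3, quasi-likelihood test, total count as library size, experiment as a replicate block, Benjamini-Hochberg adjustment over all tested genes, threshold 0.05). Each assay was fitted alone, and occupancy in a joint fit of both assays by an assay-by-treatment term. The standard errors of edgeR changes were calculated back from the test, as the absolute log2 change divided by the square root of F. The experiment numbers come from the labels, and the deviations of libraries with the same number correlated with a mean r of 0.567 in mRNA-seq and 0.139 in Ribo-seq (9 pairs each, 0.113 to 0.757 and 0.083 to 0.187). Alternatives were TMM, totals without Ins1, Ins2 and Lars2 or without Lars2, median centring, DESeq2 1.42.0, limma 3.58.1 on log2(RPKM + 0.5) or log2(RPKM + 1), a filter of 10 reads over all libraries, detected transcripts only, no block, and leaving out experiments or a control library. The edgeR fit was run on simulated data with the same dispersion for all genes and no differences between experiments. Such data cannot show how far the calls depend on the block. All 10 genes are named whatever their values, and from each other list at most 3 called genes with the largest change in Ribo-seq at 1 h and in mRNA-seq at 18 h. The genes and lists were chosen with earlier results of these data known. Upstream AUGs and promoter motifs were read from RefSeq with Python 3.11.15 and pysam 0.24.0.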

Additional observations from a re-analysis of the deposited data

How the results depend on the processing

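Of the 25 calls in Ribo-seq, 324 of 325 repeats under an alternative kept the call, of the 22 calls in mRNA-seq 291 of 308 did, and of the 2 in occupancy 24 of 28 did. The direction of a call changed in 0 of them. Without the replicate block that pairs libraries by experiment, the number of the 9 genes called was 0 instead of 4 in mRNA-seq for CPA1 against control, 7 instead of 9 for CPA18 against control and 5 instead of 9 for CPA18 against CPA1, where Atf4, Ppp1r15b, Atf5 and Chac1 were lost. It was 0 instead of 1 in occupancy for both comparisons with control, and 7, 9 and 9 as before in Ribo-seq. Leaving out 1 experiment at a time gave 1 to 4 genes in mRNA-seq and 0 to 3 in occupancy for CPA1 against control, and 0 to 1 in occupancy for CPA18 against control. The lowest of these were without experiment 3, without experiment 2 and without experiment 1.

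In occupancy for CPA1 against control, 3 genes instead of 1 were called with TMM, with a total without Ins1, Ins2 and Lars2 and with the wider filter, 2 with median centring, with limma at either pseudocount and with a total without Lars2 (chosen after seeing the data), and 4 with DESeq2. For CPA18 against control limma called 2 at either pseudocount, and for CPA18 against CPA1 DESeq2 called 1 instead of 0. The cause of these differences was not tested. The share of called genes that were higher moved by over 10 percentage points with TMM in mRNA-seq for CPA1 against control (28 of 28 instead of 35 of 56) and for CPA18 against CPA1 (43.1% instead of 85.2%), and in Ribo-seq for CPA18 against CPA1 (46.5% instead of 75.5%). With median centring it was 35.4% instead of 57.2% in Ribo-seq and 31.6% instead of 100% in occupancy, both for CPA1 against control. This occupancy share also fell with other scalings. It was 40% with TMM, 24.1% with a total without Ins1, Ins2 and Lars2, 21.4% with a total without Lars2 and 32.4% with DESeq2.

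Depth limits the low genes most: control Ddit3 had 11 Ribo-seq reads in 3 libraries and control Atf3 14, so that the size of their changes is loosely set.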
